A study of Danio rerio with 24 samples.

Results

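Of 24 RNA-seq libraries of whole zebrafish embryos, 12 are described here: the 6 knockout (KO) libraries with the lower aplnrb level, and the 6 wild-type (WT) libraries with replicate numbers 3 and 4. Each library is a pool of about 50 embryos labelled as 3 days post fertilization (dpf), so a value is an average over many fish. The KO pools are replicates 2 and 4 in DMSO (labelled 0 h), replicates 3 and 4 after 3 h in 0.5 µM ML233, and replicates 2 and 4 after 24 h in 0.5 µM ML233. The WT pools are replicates 3 and 4 of the same 3 treatments. Each genotype therefore has 2 libraries in each treatment. The other 12 libraries are the 6 KO pools with higher aplnrb (replicates 1 and 3 in DMSO, 1 and 2 at 3 h, 1 and 3 at 24 h) and WT replicates 1 and 2. The labels call the mutants apelin receptor KO and aplnr(a/b) mutants of the AB strain, with WT fish from shared grandparents, whereas the design text calls them apelin KO. The receptor alleles and the share of homozygous embryos in a pool are not given in the sources used here.

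Measured values chose the libraries. The KO pools were taken for their aplnrb level, and the WT pools because they deviate in the same direction as those KO pools. Differences between them are therefore given as descriptions with no p-value, and support nothing by themselves. In what follows, a gene "separates" 2 sets of 6 libraries when every library of one set lies above every library of the other. Tests come from 2 comparisons fitted across all genes with edgeR's quasi-likelihood test: KO against WT over all 24 libraries as labelled, and KO against WT in the other 12 libraries. "Rose" and "fell" refer to the first of these tests, at an adjusted p under 0.05. It contains the 12 chosen libraries and treats pools of the 3 treatments as independent, and the second is the remainder of the same split, so p-values in both may be too small.

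The apelin receptor is a G protein-coupled receptor for the peptides Apelin and Apela. Zebrafish carry a pair of receptor genes, aplnra and aplnrb, which are known for guiding mesendoderm cells in gastrulation and for heart and vessel formation. ML233 is a small molecule known as an apelin receptor agonist, and the title of the series names it as an inhibitor of tyrosinase, the enzyme of melanin synthesis. The growth protocol in the labels gives 1 CRISPR guide RNA target in the coding sequence of each receptor gene, shown because aplnrb is the gene that sorts the KO pools.
aplnra: tgggtgtgactactcggagt
aplnrb: cttgcagagtgccacgccaa
Each target is 20 bases long and is written 5′ to 3′.

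aplnrb, at chr10:8629275-8631361 on the plus strand of GRCz11, had 9.70, 10.2 and 12.4 CPM (read counts scaled by library size) as lowest, median and highest value in the chosen KO pools, and 23.4, 24.2 and 27.0 CPM in WT replicates 3 and 4. Just inside the choice stood a DMSO pool with 10 CPM, a 3 h pool with 10.4 CPM and a 24 h pool with 12.4 CPM. Just outside it stood KO pools with 16.1 CPM (DMSO), 17.7 CPM (3 h) and 16.6 CPM (24 h), so a gap separated the chosen and the other KO pools in each treatment. aplnra, at chr8:40325690-40327397 on the minus strand, was also lower, with 13.3, 15.2 and 16.8 CPM in the chosen KO pools, against 23.3, 24.6 and 25.2 CPM in WT replicates 3 and 4. The ligand gene apln had 82.9, 88.7 and 93.9 CPM in the chosen KO pools and 95.5, 99.8 and 103 CPM in WT replicates 3 and 4. All 3 genes separated the chosen genotypes, whereas apela was too low to be tested. The difference of mean log2 CPM, KO minus WT, was -1.23 for aplnrb, -0.69 for aplnra and -0.17 for apln. Over all 24 libraries as labelled, aplnrb fell by 0.79 ± 0.11 (SE) on the log2 scale (edgeR adjusted p = 0.000135), aplnra fell by 0.50 ± 0.07 (adjusted p = 0.000135) and apln fell by 0.22 ± 0.04 (adjusted p = 0.000799). No level was near 0, and reads from a transcript with a small insertion or deletion would still be counted. Over the 12 chosen libraries the genes most like aplnrb by Pearson correlation of log2 CPM were atp6v0cb, khdrbs2 and fam110b (r = 0.99 each) and cpt2 (r = 0.989), a description in which every gene that separates the 2 genotypes scores high. Within 1 Mb, 9 of the 57 tested neighbours of aplnrb separated the chosen genotypes with higher and 5 with lower KO levels, and 5 and 8 of the 42 tested neighbours of aplnra, against 12.2% and 10.5% of all tested genes.

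The libraries formed sets that the labels do not name. Total counts were 30.7 M to 37.2 M in the chosen KO pools, 29 M to 34.9 M in WT replicates 3 and 4, 29 M to 43.4 M in the other KO pools and 29 M to 37.2 M in WT replicates 1 and 2. The first principal component (41.6% of the variance) placed the chosen KO pools at 37.5 to 143.2, WT replicates 3 and 4 at -5.6 to 43.4, the other KO pools at -47.5 to -27.9 and WT replicates 1 and 2 at -51.0 to -42.8. The highest value belonged to KO 24 h replicate 2, which also had the lowest normalization factor, 0.833. The second component (17.3%) ran from -46.2 to 0.1 in the chosen KO pools and from 40 to 66.8 in WT replicates 3 and 4. Across 27010 tested genes, the difference between the chosen and the other KO pools correlated with that between WT replicates 3 and 4 and WT replicates 1 and 2 (Pearson r = 0.561, Spearman rho = 0.542, a description across genes that are not independent), with the same sign for 69.9% of genes. This is the shared direction named in the choice of the WT set. Replicates of a group that fell in different sets differed by a chi-square of 25.8 to 135 per degree of freedom, against 4.15 to 20.1 for replicates in the same set. Whether the sets are batches, clutches or stages is not given in the labels, and for the chosen KO pools set and genotype level cannot be told apart.

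**Figure D1:**
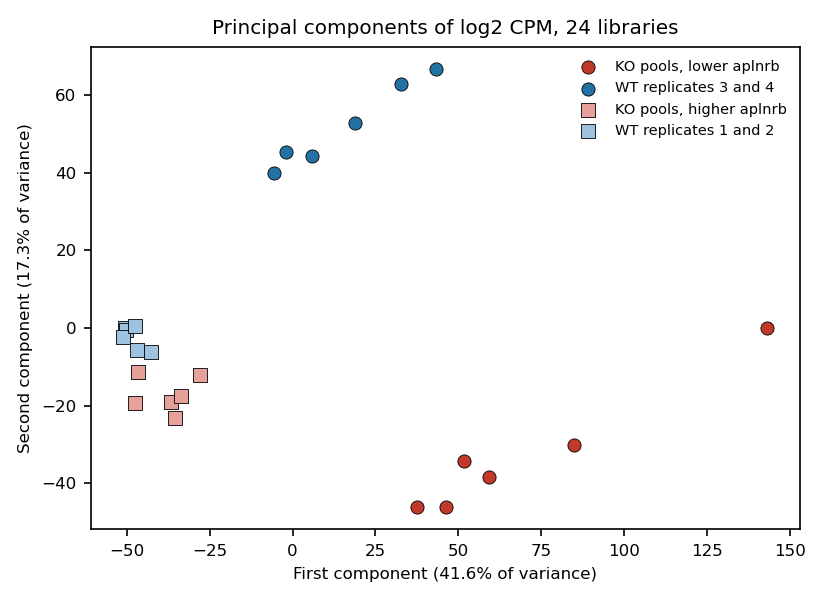
First and second principal components of log2 CPM, 1 point per library, coloured by genotype and set. The chosen KO pools reach 143.2 on the first component, and on the second component WT replicates 3 and 4 lie between 40 and 66.8, apart from all other libraries.

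Between the chosen KO pools and WT replicates 3 and 4, most large differences were higher levels in KO. 3303 genes (12.2% of those tested) separated the sets with higher KO levels and 2847 (10.5%) with lower ones. At a difference of at least 2-fold in mean log2 CPM, 1228 (4.55%) were higher and 424 (1.57%) lower in KO. At a log2 difference of at least 3 the counts were 94 higher and 4 lower. In the other 12 libraries, 521 genes (1.93%) separated the genotypes with higher KO levels and 520 (1.93%) with lower ones, and the 2-fold counts were 102 (0.378%) and 21 (0.0777%). Of the 1228 genes, 178 also separated the other 12 libraries in the same direction, and 265 had the opposite sign there, with a median KO minus WT difference of 0.251 log2 in the other 12 libraries against 1.53 in the chosen ones. Of the 424 lower genes, 26 separated the other 12 libraries in the same direction and 140 had the opposite sign, with a median of -0.0846. edgeR called 1570 genes higher (5.81%) and 1457 lower (5.39%) in KO in the other 12 libraries. The labelled comparison of all 24 libraries called 2537 genes higher (9.39%) and 1700 lower (6.29%) in KO. No gene passed a test of the genotype difference depending on treatment (edgeR, 0%), with 261 genes at an unadjusted p under 0.05, fewer than chance alone would give. The sets lie within each group and are not in the model, so their spread weakens this test. It does not show that the difference is independent of treatment. The median difference of the 1228 genes was 1.52 log2 in DMSO, 1.5 at 3 h and 1.64 at 24 h in the chosen libraries, and that of the 424 genes -1.20, -1.22 and -1.31.

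**Figure D2:**
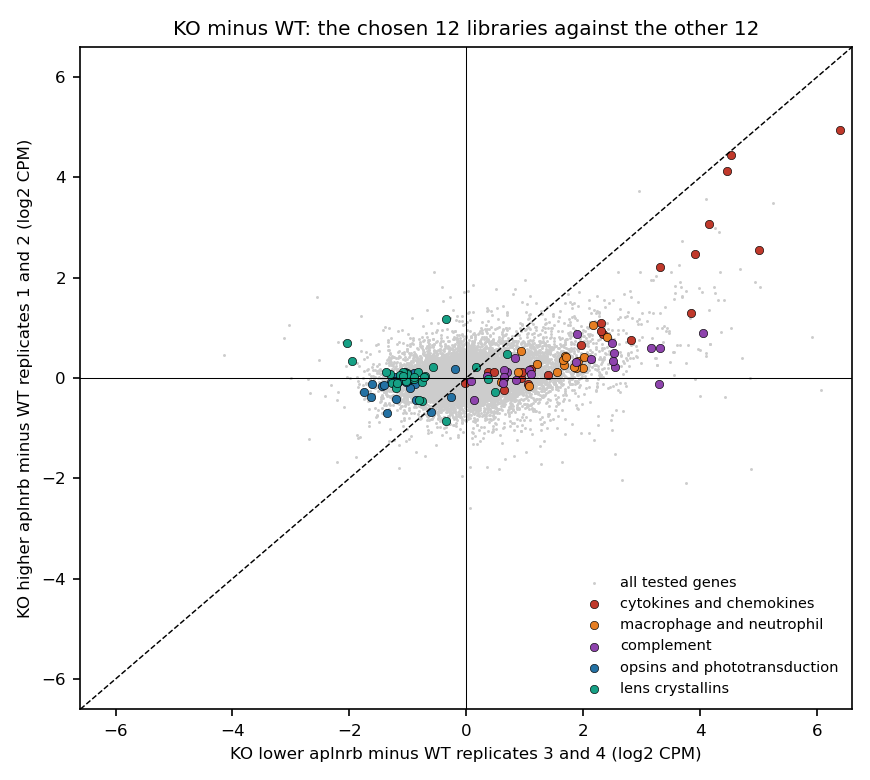
KO minus WT difference of mean log2 CPM in the 12 chosen libraries (horizontal) and in the other 12 (vertical) for 27010 genes, with 5 gene lists coloured and the line of equality dashed. Cytokine and chemokine genes run from -0.03 to 6.39 horizontally (median 2.31) with a median of 0.82 vertically, whereas opsin and phototransduction genes (medians -1.1 and -0.08) and lens crystallins (-0.89 and 0.04) lie mostly left of 0 and around 0 vertically.

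Genes of matrix breakdown were among those with the largest differences. Matrix metalloproteinases cut collagen and other matrix proteins, and TIMP proteins inhibit them. mmp13a, a collagenase gene at chr10:38610741-38620514, had 32.1, 76.3 and 254 CPM as lowest, median and highest value in the chosen KO pools, against 1.63, 2.1 and 2.69 CPM in WT replicates 3 and 4. The sets lay far apart, with the 254 CPM in KO DMSO replicate 4. A second gene ID carries the same symbol and had 20.7, 36.6 and 65.5 CPM in the chosen KO pools and 2.27, 3.10 and 3.69 CPM in WT replicates 3 and 4, and reads of the 2 copies may be split between them. mmp9, a gelatinase gene at chr8:24281512-24295947, had 148, 228 and 418 CPM in KO and 11.2, 12 and 15.3 CPM in WT. timp2b, an inhibitor gene at chr3:57632965-57666996, had 270, 343 and 438 CPM in KO and 11.105, 14.0 and 29.9 CPM in WT. These genes separated the genotypes in the other 12 libraries too, by smaller differences. mmp9 had 31.1 to 205 CPM in the other KO pools and 7.97 to 11.6 CPM in WT replicates 1 and 2, and timp2b 49.6 to 178 CPM and 11.055 to 13.2 CPM in the same order of sets. Over all 24 libraries mmp13a rose by 5.03 ± 0.51 (SE) on the log2 scale (edgeR adjusted p = 6.29e-06), mmp9 by 3.96 ± 0.36 (adjusted p = 2.22e-06) and timp2b by 3.90 ± 0.38 (adjusted p = 3.64e-06). The family did not follow as a whole. Of its 20 tested genes, with the genes above included, 9 were higher and 1 lower in KO without overlap in the chosen libraries. Their median difference was 0.18 log2, and 7 rose and 1 fell over all 24 libraries. The shares of all tested genes were 12.2% higher and 10.5% lower without overlap, and 9.39% and 6.29% over all 24 libraries.

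**Figure D3:**
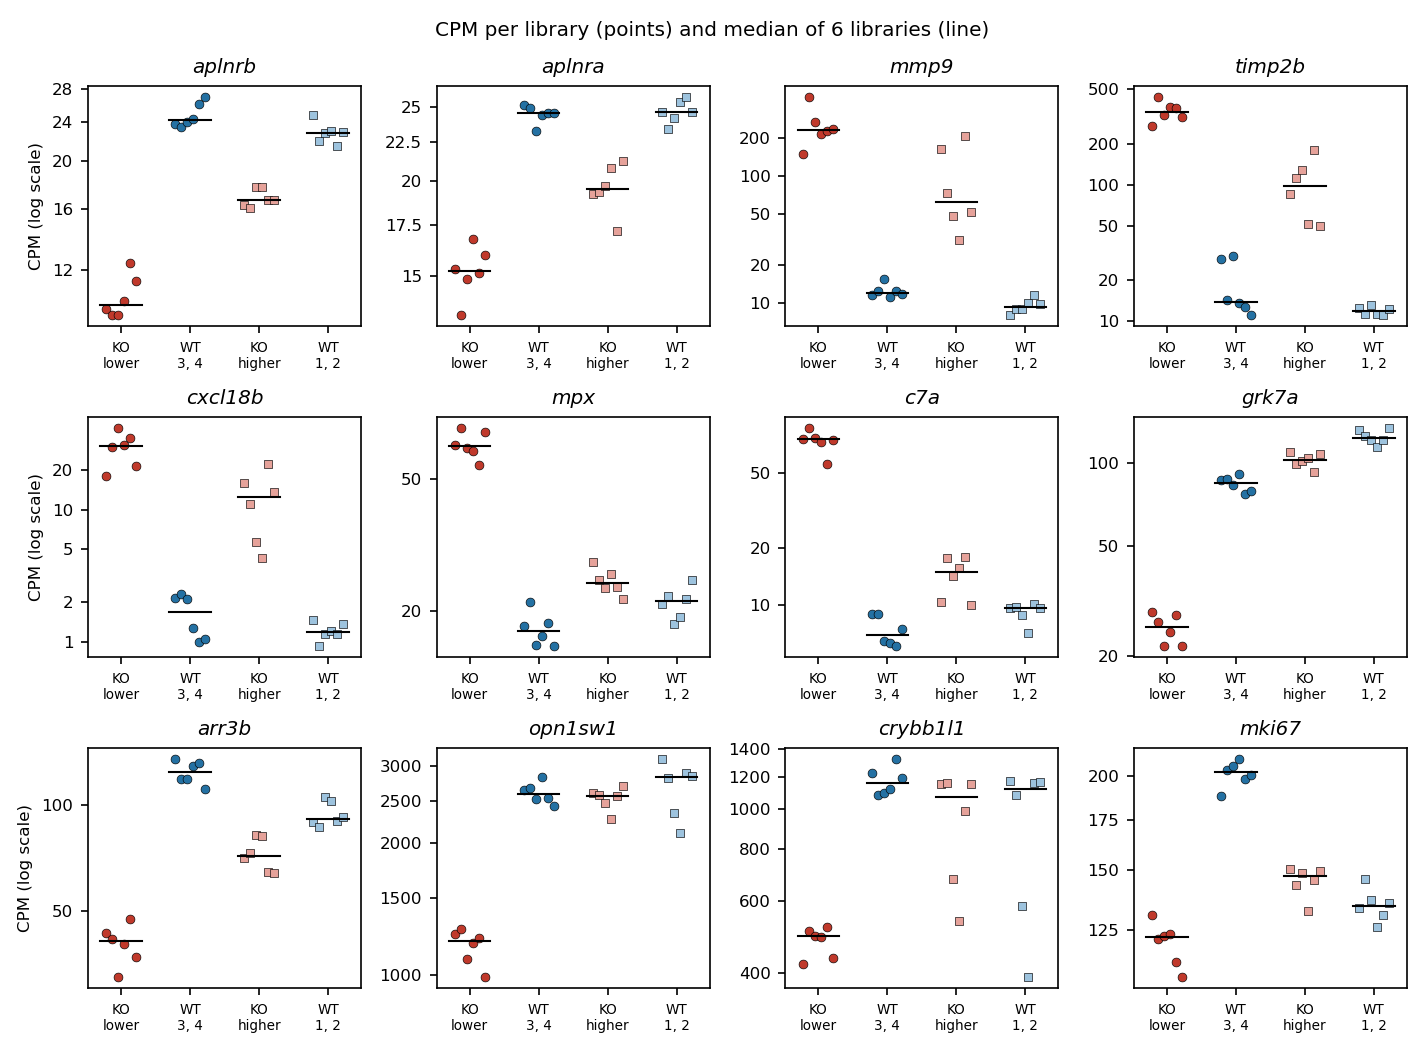
CPM of 12 genes in every library on log axes, with points for libraries and a line at the median of 6. In each panel the chosen KO pools ("KO lower") stand beside WT replicates 3 and 4, followed by the other KO pools ("KO higher") and WT replicates 1 and 2. In every panel the chosen KO pools differ from WT replicates 3 and 4 more than the other KO pools do from WT replicates 1 and 2. The genes shown were picked, and for aplnrb the choice of the KO pools fixed this in advance, so it supports nothing. fosl1a, not shown, went the other way, with 2.96 log2 in the chosen and 3.73 in the other libraries. The KO minus WT difference was 4.26 log2 in the chosen and 3.00 in the other libraries for mmp9, and -1.30 and 0.09 for crybb1l1.

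Inflammatory signals were the list with the highest median difference among those with more than 2 tested genes. Of 22 tested cytokine and chemokine genes, 18 were higher in KO without overlap in the chosen libraries and none lower, 14 of them by at least 2-fold. The shares of all tested genes were 12.2% higher, 10.5% lower and 4.55% higher by at least 2-fold. The median difference of the list was 2.31 log2 in the chosen libraries and 0.82 in the other 12, where 7 separated. Over all tested genes the medians were -0.02 and -0.00265. il1b, the gene of the early inflammatory cytokine interleukin 1β, had 9.45, 25 and 69.0 CPM in the chosen KO pools and 0.506, 0.668 and 0.891 CPM in WT replicates 3 and 4. cxcl18b, a chemokine gene that attracts neutrophils in zebrafish, had 17.9, 30.5 and 41.6 CPM in KO and 0.991, 1.69 and 2.31 CPM in WT. Neither gene overlapped between the sets. lepb, a leptin gene known for its induction in injured zebrafish tissue, had the largest difference of the list, with 9.73, 14.9 and 22.5 CPM in KO and 0, 0.034 and 1.12 CPM in WT. The interleukin 11 gene il11a had 4.62, 8.72 and 17.1 CPM in KO and 0.031, 0.252 and 1.25 CPM in WT. WT replicates 3 and 4 had levels near 0 for both genes, so the sizes of these differences depend on the prior count of 2 used in log2 CPM. The KO minus WT difference of lepb was 6.39 log2 in the chosen libraries and 4.95 in the others, and that of il11a 4.54 and 4.44. By contrast cxcl12a, a homeostatic chemokine gene, differed by 0.94 log2 in the chosen libraries and by less than 0.01 in the others, where its adjusted p was 0.992 (edgeR). Over all 24 libraries 18 of the 22 genes rose and none fell, against 9.39% and 6.29% of all tested genes. il1b rose by 4.54 ± 0.55 log2 (SE, edgeR adjusted p = 3.08e-05) and cxcl18b by 3.88 ± 0.34 (adjusted p = 1.52e-06).

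The intracellular arm of cytokine signalling moved in the same direction. STAT3 and the C/EBP factors relay signals of the interleukin 6 and interleukin 11 family, and SOCS3 is their feedback inhibitor. Of 11 tested genes, 7 were higher in KO without overlap in the chosen libraries, and the median difference was 1.02 log2 (0.34 in the other 12). Over all 24 libraries 8 rose, against 9.39% of all tested genes. socs3b had 147, 170 and 215 CPM in the chosen KO pools, against 27.8, 31.6 and 39.5 CPM in WT replicates 3 and 4. socs3a had 110, 162 and 178 CPM in KO and 27.3, 29.6 and 38 CPM in WT. In the other 12 libraries the levels of socs3a were 17.3 to 38.5 CPM in the KO pools against 6.45 to 16.2 CPM in the WT pools, so WT replicates 3 and 4 stood within the range of the other KO pools. Of 24 tested AP-1 and immediate early genes, 9 were higher and 3 lower in the chosen libraries, with a median of 0.05 log2. Of all tested genes, 12.2% were higher and 10.5% lower without overlap there, so the 3 lower ones are near that share. In the other 12 libraries 14 of the 24 were called higher and none lower (edgeR, median 0.35), against 5.81% and 5.39% of all tested genes. fosl1a, an AP-1 subunit gene, had 22.7, 44.2 and 80.1 CPM in KO and 3.46, 5.52 and 9.30 CPM in WT, and rose by 3.28 ± 0.45 log2 over all 24 libraries (SE, edgeR adjusted p = 0.0001). junba, of the same dimer family, had 95.7, 136 and 161 CPM in KO and 20.4, 25.4 and 26.3 CPM in WT. npas4a, an activity-dependent gene of neurons, was lower, with 13.1, 19.5 and 29.7 CPM in KO and 40.6, 46.3 and 63.3 CPM in WT. It had 4.98 to 31.9 CPM in the other KO pools and 3.57 to 28.0 CPM in WT replicates 1 and 2, so only WT replicates 3 and 4 stood apart. npas4a did not pass the test over all 24 libraries (edgeR adjusted p = 0.254). The classic member fosab overlapped between KO (28.8 to 79.2 CPM) and WT (32.0 to 63.0 CPM) in the chosen libraries, while it had 4.03 to 14.1 CPM in the other KO pools and 1.44 to 8.05 CPM in WT replicates 1 and 2.

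stat1b, a STAT gene of the interferon pathway, had 10.3, 10.8 and 11.2 CPM in the chosen KO pools and 0.255, 0.505 and 0.783 CPM in WT replicates 3 and 4. In the other 12 libraries it had 1.36 to 2.83 CPM in the KO pools against 0.461 to 0.940 CPM in the WT pools. Its difference was 4.30 log2 in the chosen libraries and 1.56 in the others, and it rose by 3.44 ± 0.43 log2 over all 24 libraries (SE, edgeR adjusted p = 4.15e-05).

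Genes of macrophages and neutrophils were higher in the chosen KO pools almost throughout their list. Of 17 tested genes, 15 were higher without overlap, against 12.2% of all tested genes, and 13 by at least 2-fold, against 4.55%. The median difference of the list was 1.68 log2, against 0.28 in the other 12 libraries. The summed level of the list was 398 to 452 CPM in the chosen KO pools and 120 to 141 CPM in WT replicates 3 and 4, and in the other 12 libraries 169 to 201 CPM in the KO pools against 142 to 162 CPM in the WT pools. marco, a scavenger receptor gene of macrophages, had 9.98, 10.8 and 14.9 CPM in the chosen KO pools and 1.89, 2.14 and 2.23 CPM in WT replicates 3 and 4. mpeg1.2, which encodes a macrophage perforin-like protein, had 25.1, 34.9 and 40.6 CPM in KO and 5.95, 7.50 and 8.85 CPM in WT. mpx, the neutrophil myeloperoxidase gene, had 55.2, 62.9 and 71.4 CPM in KO and 15.6, 17.4 and 21.2 CPM in WT. The mpx groups overlapped in the other 12 libraries, at 21.8 to 28.1 CPM in the KO pools against 18.2 to 24.7 CPM in the WT pools (edgeR adjusted p = 0.0535), whereas mpeg1.2 separated there too, at 15.2 to 26.2 and 6.84 to 12.3 CPM. The test over all 24 libraries found that 15 of the 17 genes rose and none fell, against 9.39% and 6.29% of all tested genes. marco rose by 1.90 ± 0.31 log2 (SE, edgeR adjusted p = 0.000441) and mpx by 1.19 ± 0.22 (adjusted p = 0.00124). In RNA from whole embryos, more cells of a type and more RNA per cell cannot be told apart.

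Complement and liver genes were the other broad group with higher levels. Complement proteins are made mainly by hepatocytes, circulate in plasma and mark or lyse microbes. In the chosen libraries, 12.2% of all tested genes were higher and 10.5% lower without overlap, and 4.55% were also at least 2-fold higher. Of 23 tested complement genes, 18 were higher in KO without overlap in the chosen libraries and none lower, 13 by at least 2-fold, with a median of 1.1 log2 there and 0.17 in the other 12. Their sum was 2472 to 3047 CPM in the chosen KO pools and 728 to 794 CPM in WT replicates 3 and 4, and 881 to 1021 CPM in the other KO pools and 749 to 810 CPM in WT replicates 1 and 2. c7a, a gene of the membrane attack complex at chr8:31872992-31899329, had 55.6, 75.2 and 86.4 CPM in the chosen KO pools and 6.07, 6.99 and 9.01 CPM in WT replicates 3 and 4. cfh, of the regulator factor H, had 10.5, 14.0 and 16.6 CPM in KO and 0.960, 1.29 and 2 CPM in WT. In the other 12 libraries c7a overlapped between KO (10.1 to 18.0 CPM) and WT (7.14 to 10.2 CPM), and cfh between 1.41 to 2.88 CPM in the KO pools against 0.746 to 4.12 CPM in the WT pools. The central component c3a.1 had 1213, 1348 and 1543 CPM in the chosen KO pools and 225, 232 and 261 CPM in WT replicates 3 and 4. 16 of the 23 genes rose over all 24 libraries and none fell, against 9.39% and 6.29% of all tested genes. c7a rose by 2.41 ± 0.38 log2 (SE, edgeR adjusted p = 0.000322) and cfh by 2.09 ± 0.48 (adjusted p = 0.00541). Genes with near copies, such as the c3a cluster and the 2 IDs named c6, may share reads.

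Among 25 tested liver plasma protein genes, 13 were higher and 1 lower in KO without overlap, with a median of 0.60 log2 in the chosen libraries and -0.05 in the other 12, where edgeR called 6 higher and 8 lower. Of all tested genes, 12.2% were higher and 10.5% lower without overlap in the chosen libraries. In the other 12, edgeR called 5.81% of all tested genes higher and 5.39% lower. fgb encodes a chain of fibrinogen, the protein that forms clots. fgb had 694, 810 and 978 CPM in the chosen KO pools, against 188, 206 and 229 CPM in WT replicates 3 and 4, and in the other 12 libraries its ranges overlapped at 200 to 259 CPM in the KO pools against 179 to 223 CPM in the WT pools. hpx, the heme-binding hemopexin gene, had 17.0, 27.8 and 57.8 CPM in KO and 2.16, 3.94 and 5.81 CPM in WT. The list did not move as a unit, since the transferrin gene tfa (-0.21 log2) and the retinol carrier gene rbp4 (0.33) overlapped between the chosen genotypes, and a2ml was lower, at 121 to 178 CPM in the KO pools against 189 to 226 CPM in the WT pools. In the labelled comparison 8 of the 25 rose and 1 fell, against 9.39% and 6.29% of all tested genes. Of 18 lipoprotein and uptake genes, 10 were higher and 1 lower in the chosen KO pools, and 10 rose and 1 fell over all 24 libraries. apoeb, an apolipoprotein E gene, had 2102, 2396 and 2846 CPM in KO and 1002, 1071 and 1200 CPM in WT. scarb1, the receptor for high-density lipoprotein, was the lower member, at 21.8, 24.7 and 26.5 CPM in KO and 49.1, 53.3 and 57.4 CPM in WT, and fell by 0.81 ± 0.09 log2 over all 24 libraries (SE, edgeR adjusted p = 1.21e-05). lipca, the hepatic lipase gene, had 7.74, 8.40 and 12.2 CPM in the chosen KO pools and 0.650, 0.795 and 1.37 CPM in WT replicates 3 and 4.

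Several genes with large differences in the chosen libraries had small ones in the other 12. igfbp1b encodes an insulin-like growth factor binding protein, and had 44.9, 59.6 and 72.6 CPM in the chosen KO pools and 2.82, 3.40 and 3.98 CPM in WT replicates 3 and 4. In the other 12 libraries it had 11.7 to 19.3 CPM in the KO pools against 6.75 to 15.4 CPM in the WT pools, which placed WT replicates 3 and 4 below WT replicates 1 and 2 by 1.56 log2. cyp24a1, the vitamin D catabolic enzyme, followed the same order, with 63.4, 86.0 and 96.0 CPM in the chosen KO pools, 4.53, 5.01 and 7.30 CPM in WT replicates 3 and 4, 12.8 to 22.4 CPM in the other KO pools and 9.68 to 12 CPM in WT replicates 1 and 2. slc25a38a, of a mitochondrial glycine carrier, had 12.6, 14.8 and 20.1 CPM in the chosen KO pools and 0.815, 1.16 and 2.24 CPM in WT replicates 3 and 4, and its log2 difference was 3.55 there and 0.52 in the others. For igfbp1b and cyp24a1 the deviation of WT replicates 3 and 4 from WT replicates 1 and 2 ran opposite to that of the KO pools, so the WT set named for its shared direction widened the difference. Eligible genes here were protein coding, had a symbol, averaged 1 or more on the log2 CPM scale and separated the chosen genotypes. Most of the 10 eligible genes with the highest differences, by contrast, also separated the other 12 libraries by more than 2-fold. They were mmp13a, il1b, timp2b, stat1b, mmp9 and cxcl18b, described above, and scpp8 and ms4a17a.2. scpp8, of the family of secretory calcium-binding phosphoproteins, had 11, 17.0 and 36.8 CPM in the chosen KO pools and 0.509, 0.821 and 1.1 CPM in WT replicates 3 and 4, a difference of 4.34 log2 there and 2.11 in the others (edgeR adjusted p = 0.0131). ms4a17a.2, a member of the membrane-spanning MS4A family, had 6.12, 10.9 and 12.4 CPM in KO and 0.238, 0.618 and 0.859 CPM in WT, a difference of 4.03 log2 there and 1.72 in the others (adjusted p = 0.000407).

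Eye genes were the main groups with lower levels. Opsins are the light receptors of rods and cones, and the other phototransduction genes carry, amplify or end their signal. In the chosen libraries, 10.5% of all tested genes were lower and 12.2% higher without overlap, and 1.57% were also at least 2-fold lower. Of 25 tested genes of this list, 22 were lower in KO without overlap in the chosen libraries and none higher, 15 by at least 2-fold, with a median of -1.1 log2 against -0.08 in the other 12 libraries. Their sum was 3840 to 4901 CPM in the chosen KO pools and 8832 to 10840 CPM in WT replicates 3 and 4, while it was 9150 to 10620 CPM in the other KO pools and 8605 to 11660 CPM in WT replicates 1 and 2. opn1sw1, the ultraviolet cone opsin gene, had 988, 1200 and 1274 CPM in the chosen KO pools and 2435, 2594 and 2837 CPM in WT replicates 3 and 4. rho, the rod opsin gene, had 1375, 1696 and 1833 CPM in KO and 2935, 3442 and 3786 CPM in WT. Both overlapped in the other 12 libraries, with rho at 2805 to 3738 CPM in the KO pools against 2384 to 3648 CPM in the WT pools, and neither passed edgeR's test over all 24 libraries (adjusted p = 0.0532 and 0.138), although opn1sw1 passed with DESeq2 (adjusted p = 0.0273) and in edgeR when any of the 6 other KO pools was left out (0.0227 to 0.0383). grk7a, the cone opsin kinase gene at chr2:16536453-16544343, had 21.7, 25.4 and 28.9 CPM in the chosen KO pools and 77.4, 84.7 and 91.1 CPM in WT replicates 3 and 4. It also separated the other 12 libraries, at 92.6 to 110 CPM in the KO pools against 114 to 134 CPM in the WT pools. arr3b, a cone arrestin gene at chr14:32837914-32850768, had 32.2, 40.9 and 47.4 CPM in the chosen KO pools and 111, 124 and 136 CPM in WT replicates 3 and 4, and 64.1 to 82.1 CPM in the other KO pools and 86.4 to 106 CPM in WT replicates 1 and 2. In the labelled comparison of all 24 libraries 5 of the 25 genes fell and none rose, against 6.29% and 9.39% of all tested genes. Those that fell were arr3b by 0.96 ± 0.16 log2 (SE, edgeR adjusted p = 0.000443), its paralog arr3a by 1.01 ± 0.09 (adjusted p = 3e-06), and rcvrn3, rcvrna and opn1lw2. The call of opn1lw2 was lost when any of 11 libraries was left out (all 6 chosen KO pools, 4 of the chosen WT pools and WT DMSO replicate 1, edgeR adjusted p up to 0.0686). That of rcvrna was lost without any of 5 chosen KO pools or WT 3 h replicate 3 (up to 0.0536).

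The lens crystallins, the proteins that fill lens fibre cells, had a like pattern with more spread in the other libraries. Of 29 tested genes, 23 were lower in the chosen KO pools without overlap and none higher, with a median of -0.89 log2, against 0.04 in the other 12. The shares of all tested genes without overlap in the chosen libraries were 10.5% lower and 12.2% higher. crybb1l1, a beta crystallin gene at chr14:46301973-46310549, had 420, 492 and 519 CPM in the chosen KO pools and 1084, 1158 and 1326 CPM in WT replicates 3 and 4. In the other 12 libraries it ran from 537 to 1159 CPM in KO and from 391 to 1168 CPM in WT, where the lowest value lay below all chosen KO pools. Its difference over all 24 libraries did not pass the test (edgeR adjusted p = 0.058), but passed with DESeq2 (adjusted p = 0.0306) and in edgeR when any of 4 other KO pools or of WT 3 h replicates 1 and 2 was left out (0.0243 to 0.0496). The sum of the list was 3355 to 4854 CPM in the chosen KO pools, 7419 to 9632 CPM in WT replicates 3 and 4, 5530 to 8717 CPM in the other KO pools and 4613 to 9057 CPM in WT replicates 1 and 2. In the other 12 libraries the low sums were all in 3 h pools, with 5719 and 4613 CPM in WT and 6093 and 5530 CPM in KO. The DMSO and 24 h pools there had 7534 to 9057 CPM. In the chosen sets the lowest sums were in DMSO pools (3355 CPM in KO and 7419 CPM in WT). No cause was tested. 3 of the 29 genes fell over all 24 libraries (crygm2d1, crygm2d2 and mipb), against 6.29% of all tested genes. mipb is an aquaporin gene of the lens. Leaving out any of the 6 chosen KO pools or of 3 chosen WT pools lost its call (edgeR adjusted p up to 0.0647). Several crystallins are near-identical copies that may share reads. hsf4, a heat shock factor needed in lens, had 0.846, 0.975 and 1.57 CPM in the chosen KO pools and 2.91, 3.30 and 4.95 CPM in WT replicates 3 and 4, and overlapped in the other 12.

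**Figure D4:**
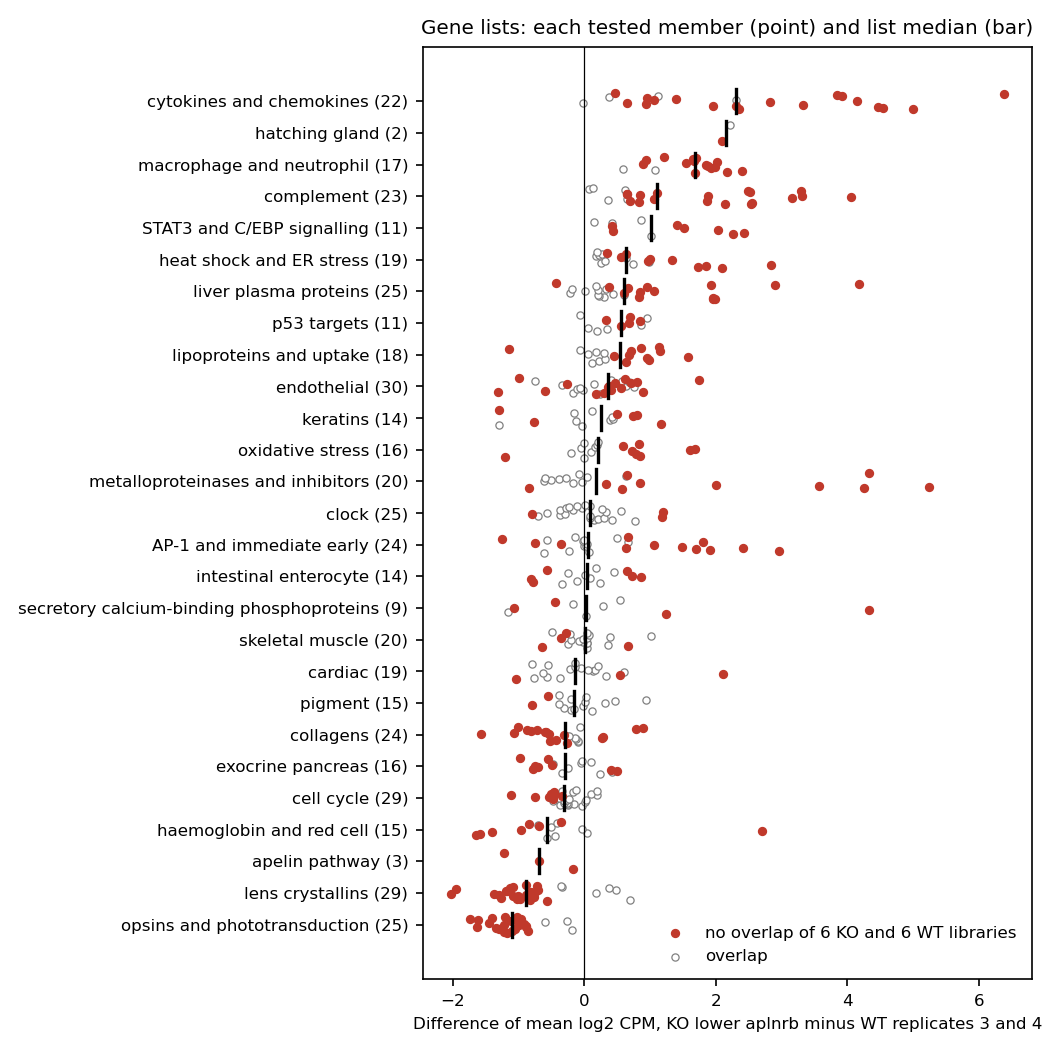
KO minus WT difference of mean log2 CPM in the 12 chosen libraries for every tested gene of 27 lists, with the number tested in brackets. Filled points are genes whose 6 KO and 6 WT libraries do not overlap and black bars are list medians, from 2.31 for cytokines and chemokines to -1.1 for opsins and phototransduction.

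Cell cycle and red cell genes were lower in smaller numbers. Of all tested genes, 10.5% were lower and 12.2% higher without overlap in the chosen libraries. edgeR called 5.81% of all tested genes higher and 5.39% lower in the other 12, and 6.29% lower over all 24. Of 29 cell cycle genes, 9 were lower in the chosen KO pools and none higher, with a median of -0.31 log2. The direction was opposite in the other 12 libraries, with a median of 0.11 and 10 genes called higher and none lower in KO (edgeR). 3 fell over all 24 libraries, mki67 among them only while each of the 12 chosen libraries was kept (edgeR adjusted p = 0.0312, and 0.054 to 0.0643 without 1 of them). mki67, a marker of dividing cells, had 108, 122 and 131 CPM in KO and 188, 202 and 210 CPM in WT. The other 12 libraries lay between or at the edge of the chosen KO pools, at 133 to 151 CPM in the KO pools against 126 to 146 CPM in the WT pools, so WT replicates 3 and 4 were high and the chosen KO pools low or within reach of the rest. Of 15 haemoglobin and red cell genes, 7 were lower and 1 higher, with a median of -0.57 log2 in the chosen libraries and 0.28 in the other 12, where edgeR called 7 higher and none lower. hbae5, an embryonic alpha globin gene, had 1.34, 2.1 and 3.24 CPM in the chosen KO pools and 5.42, 6.32 and 8.58 CPM in WT replicates 3 and 4. It had 0.601 to 0.965 CPM in the other KO pools and 0.556 to 1.12 CPM in WT replicates 1 and 2, below both chosen sets. slc4a1a, the red cell anion exchanger gene, differed by -0.96 log2 in the chosen libraries and by 0.64 in the other 12, opposite directions that each separated or passed a test in its own set (edgeR adjusted p = 1.46e-05 in the other 12). Its adjusted p over all 24 libraries was 0.419.

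Collagen genes were lower more often than higher, with 13 lower and 4 higher of 24 tested, a median of -0.29 log2 and no member 2-fold higher in the chosen libraries. Of all tested genes, 10.5% were lower and 12.2% higher without overlap there. The collagen median was 0.1 in the other 12 libraries, where edgeR called 7 higher and none lower in KO, against 5.81% and 5.39% of all tested genes. The list summed to 10660 to 11550 CPM in the chosen KO pools and 12290 to 13490 CPM in WT replicates 3 and 4. Both chosen sets stood above the other KO pools (7991 to 10310 CPM) and WT replicates 1 and 2 (7488 to 9856 CPM). The sum of the chosen KO pools was thus lower only beside WT replicates 3 and 4. col7a1, of the anchoring fibrils under the epidermis, had 5.04, 8.54 and 13.6 CPM in the chosen KO pools and 16.4, 25.9 and 30.6 CPM in WT replicates 3 and 4. The cartilage collagen gene col9a1b had 97.6, 101 and 144 CPM in KO and 197, 225 and 255 CPM in WT. The fibril-associated col12a1a was higher, at 799, 851 and 923 CPM in KO and 468, 486 and 536 CPM in WT, and rose by 0.62 ± 0.16 log2 over all 24 libraries (SE, edgeR adjusted p = 0.0141). In the labelled comparison 2 collagen genes rose and 4 fell, against 9.39% and 6.29% of all tested genes. col9a1b was among the 4 (edgeR adjusted p = 0.0484). Its call was lost when any of 18 libraries was left out (edgeR adjusted p up to 0.101) and without the count filter (0.0531). Of 14 keratins, 4 were higher and 2 lower in the chosen libraries (median 0.25 log2), whereas in the other 12 edgeR called 9 lower and none higher (median -0.33). Over all 24 libraries 1 keratin rose and 4 fell. krt8, a simple epithelial keratin gene, had 586, 645 and 826 CPM in the chosen KO pools and 281, 290 and 333 CPM in WT replicates 3 and 4, whereas the skin keratin gene krtt1c19e had 953, 1026 and 1240 CPM in KO and 2458, 2555 and 2832 CPM in WT. Among the strongest lower genes outside these lists were tgm2a, a transglutaminase gene (11, 12.7 and 14.2 CPM in KO and 33.3, 39.5 and 44.0 CPM in WT), and cyp2y3, a cytochrome P450 gene (6.52, 8.86 and 11.13 CPM in KO and 23.7, 26.3 and 32.6 CPM in WT). tgm2a fell by 0.87 ± 0.20 log2 over all 24 libraries (SE, edgeR adjusted p = 0.00602) and cyp2y3 by 1.01 ± 0.15 (adjusted p = 0.000178). col28a2b (-1.83 log2), tex2l (-1.76) and nasp (-1.72) had larger differences in the chosen libraries than cyp2y3 (-1.64) and tgm2a (-1.61), but held less well. col28a2b and nasp did not pass the edgeR test over all 24 libraries (adjusted p = 0.217 and 0.101). For nasp, WT replicates 3 and 4 (9.03 to 15.4 CPM) stood above all other libraries (at most 6.22 CPM). tex2l passed (0.0363), a call that was lost when any of 8 chosen libraries was left out (up to 0.069).

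Stress genes were higher in part. Of 19 heat shock and endoplasmic reticulum stress genes, 10 were higher and none lower in the chosen KO pools, 6 by at least 2-fold. In the other 12 libraries 9 separated with higher KO levels, and edgeR called 15 higher and none lower. Of all tested genes, 12.2% separated with higher and 10.5% with lower KO levels in the chosen libraries. In the other libraries 1.93% separated with higher KO levels. Over all 24 libraries 11 of the 19 stress genes rose, against 9.39% of all tested genes. Of the 11, herpud1 lost its call when any of 16 libraries was left out (edgeR adjusted p up to 0.116). hsp70l, an inducible chaperone gene, had 19.8, 26.8 and 167 CPM in KO and 3.21, 4.99 and 9.36 CPM in WT, with the highest value in KO 3 h replicate 4. Of 16 oxidative stress genes, 7 were higher and 1 lower, led by sqstm1, an autophagy receptor gene (42.1, 51.0 and 62.0 CPM in KO and 13.5, 15.6 and 17.8 CPM in WT). gstp2, a glutathione transferase gene, was the lower one, at 16.2, 20.3 and 34.2 CPM in KO and 40.2, 47.2 and 69.1 CPM in WT. Of 11 p53 target genes, 5 were higher and none lower, each by less than 2-fold. In the other 12 libraries edgeR called 3 oxidative stress genes higher and none lower, and 5 p53 target genes higher and 1 lower. Of all tested genes, edgeR called 5.81% higher and 5.39% lower there.

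Few genes of heart and vessels, tissues in which the apelin receptor acts, differed by 2-fold without overlap. Few of all tested genes did so either (4.55% higher and 1.57% lower), so this is no result about these tissues. Of 30 endothelial genes, 12 were higher and 4 lower in the chosen KO pools, with a median of 0.36 log2 and 1 gene past 2-fold in each direction. Over all 24 libraries 7 rose, against 9.39% of all tested genes. cxcr4a, a chemokine receptor gene, had 18.9, 21.6 and 28.1 CPM in KO and 5.53, 6.42 and 7.95 CPM in WT. tie1, an endothelial receptor kinase gene, was lower, at 1.46, 1.80 and 2.79 CPM in KO and 4.29, 4.81 and 5.74 CPM in WT. It had 1.02 to 3.07 CPM in the other KO pools and 1.14 to 2.48 CPM in WT replicates 1 and 2. Only WT replicates 3 and 4 thus stood apart, and the edgeR adjusted p of tie1 over all 24 libraries was 0.152. Of 19 cardiac genes, 2 were higher and 1 lower without overlap. Such counts are too small to set apart from the 12.2% higher and 10.5% lower of all tested genes. myl7, the atrial and ventricular myosin light chain gene of zebrafish, had 12.8, 14.5 and 19.2 CPM in KO and 25.5, 30.2 and 36.3 CPM in WT, and in the other 12 libraries 25 to 31.4 CPM in the KO pools against 26.4 to 35.5 CPM in the WT pools. It fell by 0.48 ± 0.16 log2 over all 24 libraries (SE, edgeR adjusted p = 0.0397), a call that was lost when any of 16 libraries was left out, the 12 chosen ones and 4 of WT replicates 1 and 2 (adjusted p up to 0.0766). nppb, a natriuretic peptide gene, was higher, at 0.804, 2.03 and 2.30 CPM in KO and 0.225, 0.335 and 0.781 CPM in WT.

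Other lists had few or no 2-fold differences without overlap, the hatching gland and some of the phosphoprotein and clock genes excepted. The counts without overlap stand against 12.2% higher and 10.5% lower of all tested genes. Skeletal muscle had 1 higher and 3 lower of 20 without overlap, intestinal enterocyte genes 3 and 3 of 14, exocrine pancreas 2 and 6 of 16, secretory calcium-binding phosphoproteins 2 and 2 of 9, and clock genes 2 and 1 of 25. edgeR called, in the other 12 libraries, 8 of the 20 muscle genes, 9 of the 14 enterocyte genes and 7 of the 16 pancreas genes lower in KO, against 1, 0 and 0 higher. Of all tested genes, edgeR called 5.39% lower and 5.81% higher there. Of 15 pigment genes, none was higher and 2 were lower in the chosen KO pools, and the tyrosinase gene tyr overlapped at 3.19 to 8.70 CPM in the KO pools against 4.49 to 6.89 CPM in the WT pools. Some of these lists set the chosen libraries of both genotypes apart from the others. The clock list summed to 587 to 753 CPM in the chosen KO pools, 597 to 714 CPM in WT replicates 3 and 4, 940 to 1015 CPM in the other KO pools and 942 to 1097 CPM in WT replicates 1 and 2. The exocrine pancreas list summed to 4775 to 5753 CPM in the chosen KO pools, 4025 to 6300 CPM in WT replicates 3 and 4, 7418 to 11210 CPM in the other KO pools and 9971 to 12120 CPM in WT replicates 1 and 2. The 2 hatching gland enzyme genes summed to 5.24 to 37.9 CPM in the chosen KO pools and 1.03 to 3.44 CPM in WT replicates 3 and 4, with the highest value in KO 24 h replicate 2, against at most 1.47 CPM in the other 12 libraries. What part these differences between sets have in the genotype differences was not tested.

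**Figure D5:**
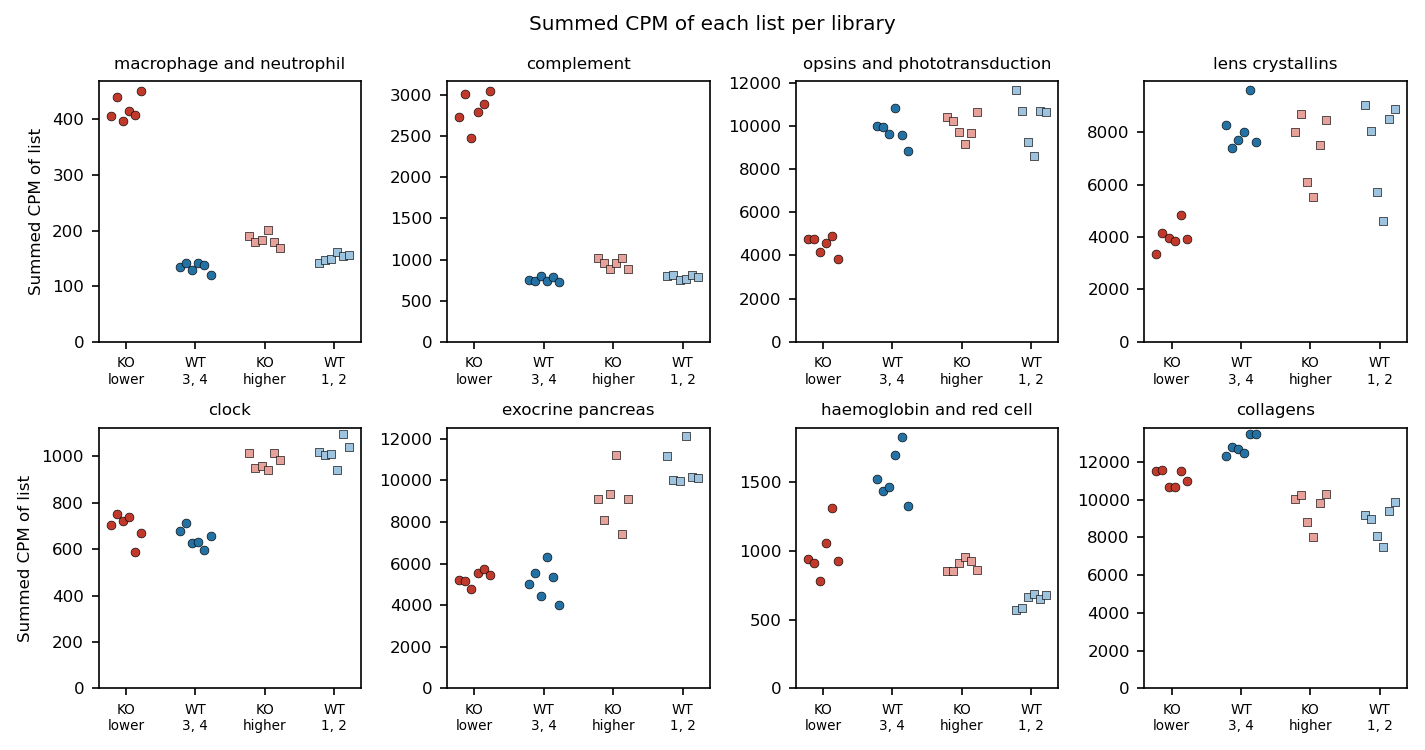
Summed CPM of 8 lists in every library, in the 4 sets of 6. Macrophage and neutrophil, complement and opsin lists set the chosen KO pools apart from all other libraries. The lens list sets the chosen KO pools (3355 to 4854 CPM) apart from WT replicates 3 and 4 and from the other KO pools. Its range there overlaps that of the other WT pools (4613 to 9057 CPM). Clock and exocrine pancreas lists place the chosen KO pools beside WT replicates 3 and 4 and below the other libraries.

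Leaving out KO 24 h replicate 2, the pool that stood apart, left 1172 of the 1228 higher and 378 of the 424 lower genes at 2-fold or more. Without it 17 of 17 macrophage and neutrophil genes, 20 of 23 complement genes and 18 of 22 cytokine and chemokine genes were higher without overlap, and 22 of 25 opsin and phototransduction genes, 23 of 29 lens crystallins and 14 of 29 cell cycle genes were lower. With the pool included these counts were 15, 18, 18, 22, 23 and 9 in the same order. Leaving out a library can only keep or raise a count without overlap, so the rise is no support.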

How the data were processed

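Poly(A) RNA of pooled 3 dpf embryos was sequenced as dUTP paired-end libraries, per the labels' protocols. The deposited table holds the authors' raw read counts per gene, and the submitters' processing notes name HISAT2 2.0.5, StringTie, featureCounts, R 4.3.2, DESeq2 1.42.1 and GRCz11. The annotation release and strand setting are not given in the sources used here, so overlapping or antisense genes may share reads. Of 37660 genes, 27010 passed filterByExpr in edgeR 4.0.16 (R 4.3.3, minimum count 10). Counts were scaled by TMM, and log2 CPM used a prior count of 2, which shrinks differences of low genes. The 12 chosen libraries were only described. The other 12 (treatment plus genotype) and all 24 (6 groups, contrast averaged over 3 treatments) were fitted with edgeR's two-sided quasi-likelihood test, with Benjamini-Hochberg adjustment over all genes and a threshold of 0.05. The scripts were tested on simulated counts.

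Members and the 27 lists (543 symbols) were chosen with earlier results of these data known. Genes were eligible to be named if they were protein coding, had a symbol, averaged 1 or more on the log2 CPM scale and separated the chosen genotypes. Names came from the 10 highest and lowest differences and the 4 highest and lowest of those that overlap or do not overlap in the other 12. The 2 highest and lowest of each list, the apelin genes and 4 genes like aplnrb were added. Not all of these genes are printed. lepb, il11a, cxcl12a, fosab, mpx, c3a.1, rho, opn1sw1, arr3a, rcvrn3, rcvrna, opn1lw2, crygm2d1, crygm2d2, mipb, slc4a1a, tfa, rbp4, tyr and nppb, and the second mmp13a ID, were named after their values were seen. Alternatives were RLE scaling, no count filter, a prior count of 0.5, a 1.5-fold threshold, DESeq2 1.42.0, a replicate block, no interaction term and leaving out each library. Unannotated loci held 7.44 to 7.84% of counts. No genome was used.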

Additional observations from a re-analysis of the deposited data

Results flagged for a closer look

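In 66 sets of 6 libraries, each a measure in 1 genotype of the chosen libraries, 7 had a library far from the other 5, where chance gives about 3.3. KO DMSO replicate 2 had 30.7 M counts, against 35.3 M to 37.2 M in the other chosen KO pools. KO DMSO replicate 4 had 254 CPM of mmp13a, against 32.1 to 104 CPM, and 36.8 CPM of scpp8, against 11 to 19.2 CPM. KO 3 h replicate 4 had 63.4 CPM of the vitamin D catabolic gene cyp24a1, against 84.3 to 96.0 CPM, and 6 CPM of the histone chaperone gene nasp, against 2.53 to 3.69 CPM. Among WT replicates 3 and 4, WT 3 h replicate 3 had 15.3 CPM of mmp9, against 11.2 to 12.5 CPM, and WT 3 h replicate 4 had 1.37 CPM of lipca, against 0.650 to 0.866 CPM. The chosen KO pools and WT replicates 3 and 4 did not overlap for any of these genes, but the naming rule required this, so it supports nothing. No cause was tested.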

How the results depend on the processing

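The 1652 genes that differed by at least 2-fold without overlap in the chosen libraries became 1657 with RLE scaling, 1705 without the count filter, 1684 with a prior count of 0.5, 1652 with upper-quartile scaling (chosen after seeing the data) and 3500 at a 1.5-fold threshold (2212 higher, 1288 lower), which is a wider threshold by construction. Leaving out each library gave 1659 to 1753, where fewer libraries make the rule of no overlap easier to meet. The other 12 libraries gave 3027 calls, 2128 to 3081 with a library left out and 3418 with DESeq2. All 24 gave 4237, 3039 to 5371 with a library left out, 3900 without the filter, 5139 with DESeq2 and 4737 with no interaction term. The replicate block gave 5204, but the labels tie the numbers to no shared source and not every pair deviated together: of 12 correlations of same-numbered KO and WT deviations, 8 were over 0.1 (all 4 at 3 h, 0.191 to 0.374) and the whole range was -0.585 to 0.467. No gene passed the genotype by treatment test in any fit (331 at an unadjusted p under 0.05 with DESeq2, 274 with the block), except that leaving out each library gave 0 to 1, the 1 without KO 3 h replicate 2. In the chosen libraries the differences of 139 genes under the naming rule or named in the text were followed. All but fosab kept their direction and moved by less than 1 SD, taken among the 6 libraries of a genotype across the 3 treatments. fosab overlapped and ran from -0.07425 to 0.2169 log2 with a library left out. For a gene that separates the sets, leaving out a library cannot turn the direction, so a kept direction there is no support. Leaving out 1 of 6 libraries cannot move a difference by 1 such SD either, so a smaller move there is no support. Over all 24 libraries the sign turned for 4 genes that passed in none of these fits. It turned under the replicate block for cpa1 (0.02945 log2) and tyr (-0.001286). Of the fits with a library left out, only those with a gene's lowest and highest edgeR adjusted p were compared in sign. At the highest it turned for tyr (-0.000531), chia.1 (-0.002025) and fosab (-9.507e-05). At the lowest the values were 0.06868, 0.1673 and 0.457 in the same order. A turn of sign in the remaining fits was not looked for. The cause was not tested. 12 of the 139 genes lost their call in at least 1 fit and 20 gained one (11 with DESeq2, 14 with the replicate block, 7 with no interaction term, 17 with a library left out). Alternatives without KO 24 h replicate 2 were added after seeing the data. Replicates of a group differed beyond counting error within sets and more so between them.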
